A study of Mus musculus with 21 samples.

Results

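The cells described here were picked from single-cell RNA libraries of mouse lung by their airway secretory transcripts, which are known for club cells. A cell was taken when it held at least 1 UMI (a counted RNA molecule) of at least 3 of the 5 genes Scgb1a1, Scgb3a2, Scgb3a1, Cyp2f2 and Hp, and at least 2 UMIs of Scgb3a2, Scgb3a1 or Cyp2f2. Cells with any UMI of Ptprc (leukocytes), Col1a2 (fibroblasts), Pecam1 (endothelium), Sec14l3 (high in ciliated cells) or Slc34a2 (alveolar type 2, AT-2, cells) were left out. Applied to the unchallenged lung and lung metastasis TME libraries, this rule took 330 of their 45034 cells. The whole series holds 100359 cells. Because the markers of club cells made up only a small share of the RNA in most of them, they are called secretoglobin-selected cells here.

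The study followed the stroma of MT-ret melanoma in mT/mG mice (at the Gt(ROSA)26Sor locus, allele tm4(ACTB-tdTomato,-EGFP)Luo), in which membrane tdTomato marks every host cell and no Cre was used. Fragments of the unlabelled tumor were placed under the skin, the primary tumor was resected, and lungs with metastases were taken later. Living tdTomato-positive cells formed the tumor microenvironment (TME) libraries, with or without depletion of CD45-positive cells, and tdTomato-negative cells formed the malignant melanoma (MM) libraries. The control was lung of unchallenged mT/mG mice, which received no tumor. The metastasis samples also held some neighbouring lung without tumor, and cells were cryopreserved before capture. The age of the mouse and the sort used are not given per library in the labels.

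Club cells are the dome-shaped, non-ciliated secretory cells of the bronchioles. They release secretoglobins onto the airway surface, break down inhaled chemicals with cytochrome P450 and other enzymes, and can renew themselves and give rise to ciliated cells. Scgb1a1 (uteroglobin, CC10) is their most abundant secreted product, Scgb3a2 and Scgb3a1 are further secretoglobins, Cyp2f2 is a P450 enzyme that activates naphthalene, and Hp encodes haptoglobin. In the GRCm38 annotation Scgb1a1 lies at chr19:9083636-9087958 on the minus strand, Scgb3a1 at chr11:49663610-49665118 on the plus strand, Cyp2f2 at chr7:27119909-27133660 on the plus strand and Hp at chr8:109575128-109579172 on the minus strand. Their positions play no part in the values, which are counts over the whole gene.

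The deposited table has 24 library names, of which 5 repeated another library, and names that 1 label joins (replicates 1-3) were counted together, which left 16 libraries. Lung metastasis TME replicates 7 and 8 repeated replicates 5 and 6, and lung metastasis TME replicate 6 was deposited a second time as lung metastasis MM replicate 6, with the same 1036 cells. Whether those cells were tdTomato-positive or negative is therefore uncertain, and the counts of most gene lists with genes that passed are given with and without this library. Replicates 5 and 6 of both tissues carry run 3 in their library names, and the labels do not say what a run covers. Their names give 4 different mice, but the copies of both metastasis libraries carry other mouse names, so the mouse behind these is not settled. The p-values rest on spread pooled across genes as well as on the spread between these libraries. They held between 4721983 and 53506609 UMIs in all, and any pair of them shared at most 48 cell barcodes.

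The selected cells were nearly all in those 4 libraries. Unchallenged lung replicates 1, 4, 5 and 6 held 0, 1, 19 and 175 of them, and lung metastasis TME replicates 1-3 (pooled mice), 4, 5 and 6 held 2, 0, 26 and 107. In unchallenged lung replicate 5 they were 0.316% of the cells (exact binomial 95% interval 0.190 to 0.493) and in replicate 6 they were 0.674% (0.578 to 0.781). In lung metastasis TME replicate 5 the share was 0.503% (0.329 to 0.737), and in replicate 6 it was 10.3% (8.54 to 12.3), the highest of all. The selected cells of that library were deep, with a median of 5062 UMIs against 1349 to 2701 in the 3 others, and its share was 4.26% with every cell thinned to 1000 UMIs and 2.22% with 4 rule genes required. Thinned, the shares of unchallenged lung replicates 5 and 6 and lung metastasis TME replicate 5 were 0.544%, 1.76% and 0.721%, and that of unchallenged lung replicate 1 was 0.311%. None were found in 1326 cells of unchallenged lung replicate 1 or in 661 cells of lung metastasis TME replicate 4. A limit of 3 counts allows shares of up to 0.226% and 0.454% there, and the exact binomial upper bounds are 0.278% and 0.557%. Unchallenged lung replicate 1 was matched to its label by elimination, since its name in the table carries another number. These intervals cover counting error only. Sorting, depletion and run differ between libraries and can set these shares. The rule also took 2 of 11310 cells of lung metastasis MM replicate 5, 1 of 6481 cells of primary tumor MM replicate 5 and no cell of the other 6 libraries.

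The barred genes removed most cells with airway transcripts. Of 7328 cells that met the criterion on the 5 genes, 6998 (95.5%) were kept out by a barred gene, 539 of them by a single UMI. Among 1346 of those cells in which Scgb1a1, Scgb3a2, Scgb3a1 and Cyp2f2 made up at least 5% of the UMIs, 1275 (94.7%) were kept out, with a UMI of Ptprc in 979 and of Sec14l3 in 897. A UMI of Ptprc was present in 63.4% and 80.4% of all cells of unchallenged lung replicates 5 and 6, against 2.26% and 29.5% in lung metastasis TME replicates 5 and 6. The selected cells are thus a small part of the cells rich in secretoglobin RNA, and the part taken differed with the library.

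The marker share, the percentage of a cell's UMIs that came from Scgb1a1, Scgb3a2, Scgb3a1 and Cyp2f2, was low in most selected cells. Its median was 1.19% in unchallenged lung replicate 5, 1.39% in unchallenged lung replicate 6, 1.26% in lung metastasis TME replicate 5 and 0.470% in lung metastasis TME replicate 6. In the rest of the cells of the same libraries, which were neither selected nor AT-2 nor ciliated cells, the medians were 0.421%, 0.280%, 0.332% and 0.334%. The 90th percentile in the rest was 1.07%, 0.729%, 1.09% and 1.12%, so the median selected cell of lung metastasis TME replicate 6 lay within the range of the rest. The rest also holds secretoglobin-rich cells that a barred gene kept out, so its values are not those of cells without airway transcripts. In unchallenged lung replicate 6, 313 cells of the rest had a share of at least 20%. A share of at least 5% was reached by 1 of 19, 58 of 175, 6 of 26 and 4 of 107 cells, together 69 of 327 (21.1%). Those marker-rich cells held 81.4%, 93.2%, 90.5% and 72.4% of all UMIs of the 4 markers among the selected cells.

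**Figure D1:**
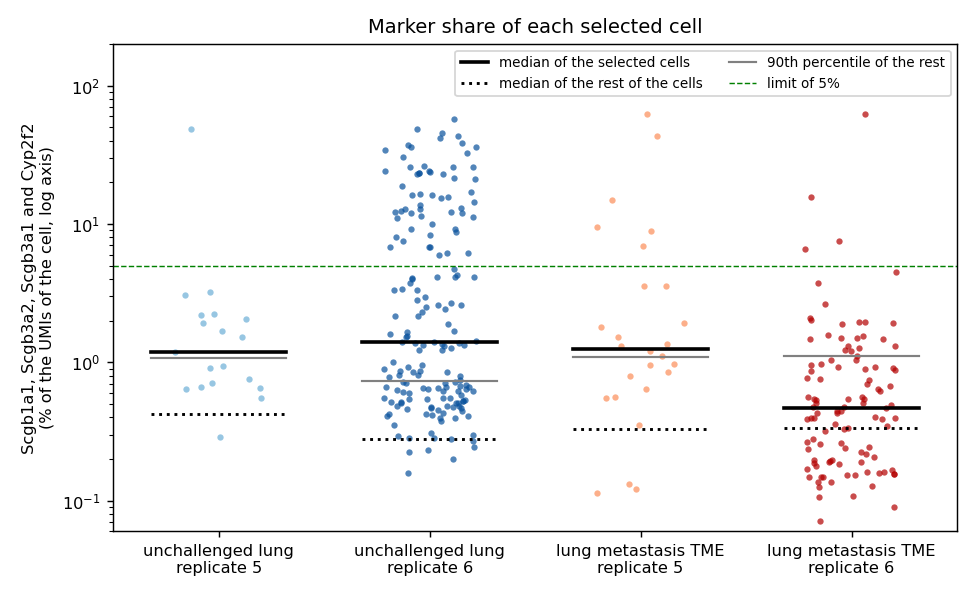
Marker share of each selected cell (percent of its UMIs, log axis) in the 4 libraries with at least 10 selected cells. Each point is a cell, thick lines are medians of the selected cells (1.19%, 1.39%, 1.26% and 0.470%), dotted lines medians of the rest, thin grey lines the 90th percentile of the rest, and the dashed line is the limit of 5%. Many points lie at or under the grey lines, and unchallenged lung replicate 6 holds 58 of the 69 points above 5%.

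The rule's thresholds fell within a continuous range. Selected cells with UMIs of 3, 4 or 5 of the rule's genes numbered 198, 85 and 47, with median marker shares of 0.563%, 1.95% and 15.7%. The 135 cells whose highest count of Scgb3a2, Scgb3a1 or Cyp2f2 was exactly 2 had a median of 0.536%. Just outside, 414 cells with a highest count of 1 had a median of 0.369%, and 232 cells with UMIs of only 2 rule genes had a median of 0.370%. The 539 cells with a single barred UMI had a median of 1.12%.

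The 5 genes of the rule are given as a description, since they chose the cells. Values are in CPM, the UMIs of a gene per 1000000 UMIs of the summed cells, in the order unchallenged lung replicates 5 and 6, then lung metastasis TME replicates 5 and 6. Scgb1a1 stood at 42314, 79725, 59486 and 10682 CPM in the selected cells and at 6629, 12281, 7661 and 6122 CPM in the rest. With every cell reduced to 1000 UMIs, 84.7% to 95.7% of the rest had a UMI of it, so a UMI of Scgb1a1 did not mark an airway cell. Scgb3a2 stood at 3772, 6735, 520.4 and 1034 CPM, and both metastasis libraries were under both control libraries. Scgb3a1 stood at 4467, 10147, 1728 and 2360.1 CPM, again with the metastasis libraries lower. Cyp2f2 stood at 2487, 3132, 1296 and 342 CPM, with no overlap, whereas Hp overlapped, at 316, 651, 982 and 182 CPM. In the rest of the cells Scgb3a2 ranged from 53.8 to 847 CPM and Cyp2f2 from 83.0 to 613 CPM.

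Single cells set many of these sums. The cell with the most Scgb1a1 held 83.2%, 12.4%, 63.3% and 49.0% of the Scgb1a1 UMIs of its library's selected cells. Without that cell Scgb1a1 fell to 7813, 71099, 23248 and 5497 CPM. For Scgb3a1 the top cell held 97.2% in unchallenged lung replicate 5 and 34.9% to 53.4% in the others, and without it the values were 139, 6276, 833 and 1571 CPM, so that unchallenged lung replicate 5 was then under both metastasis libraries. Cyp2f2 kept its order, at 2011, 2882, 1035 and 263 CPM. In unchallenged lung replicate 5 Scgb3a2 stood at 8.86 UMIs per 100 of Scgb1a1 in its 1 marker-rich cell and at 9.17 in the others. Most Scgb3a2 UMIs there thus came from that cell too, and the order of Scgb3a2 without top cells is not given here. For Scgb1a1 only unchallenged lung replicate 6 kept about the same level, and in lung metastasis TME replicate 6 and unchallenged lung replicate 5 the remainder was close to the level in the rest of the cells.

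The secretoglobins differed in proportion between libraries. Per 100 Scgb1a1 UMIs of the selected cells there were 8.91, 8.45, 0.875 and 9.68 UMIs of Scgb3a2. For Scgb3a1 the same ratio was 10.6, 12.7, 2.91 and 22.1. Lung metastasis TME replicate 5 was the low library in both ratios and lung metastasis TME replicate 6 was the high one, so the ratio did not separate the tissues. Across selected cells of one library Scgb1a1 and Scgb3a2 rose together, with a Spearman coefficient of 0.63 over 175 cells in unchallenged lung replicate 6, 0.42 over 26 cells and 0.51 over 107 cells in lung metastasis TME replicates 5 and 6. For Scgb1a1 and Scgb3a1 the coefficients were 0.55, 0.38 and 0.68. These genes chose the cells, and both values of a pair were divided by the UMIs of the same cell, which can itself shape the coefficients. The cells also share a library and any free RNA in it, which was not measured, so the coefficients describe them only.

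Markers of club cells that the rule did not use gave a mixed picture. Cbr2 (carbonyl reductase 2, abundant in bronchiolar epithelium) stood at 2529, 2512, 1669 and 662 CPM in the selected cells and at 249 to 1144 CPM in the rest. With cells reduced to 1000 UMIs, it was found in 70.6%, 68.2%, 62.5% and 19.6% of the selected cells, against 10.3% to 44.1% of the rest. Ciliated cells, taken by their own markers, had it more often, in 76.9% to 95.9%. Bpifa1 (SPLUNC1, a secreted antimicrobial protein) stood at 927, 6087, 4674 and 1054 CPM, and its top cell held 61.4%, 17.1%, 77.7% and 75.2% of the UMIs. Some other markers were near or at 0: Kcnj16 had no UMI in any selected cell, and Chad had 0, 17, 0 and 7 UMIs. Cldn10, Aldh3a1 and Cckar each stood at no more than 42.1 CPM, with at most 12.9 CPM in the rest. Higher were Lypd2, at 379, 461, 128 and 40.5 CPM against 6.89 to 82.9 CPM in the rest, and Gsta3 (a glutathione S-transferase), at 126, 100.5, 49.1 and 11.04 CPM against 4.80 to 20.1 CPM. In unchallenged lung replicate 6, with cells reduced to 1000 UMIs, Pigr was found in 13.9% of the selected cells and 3.33% of the rest. Sox2 was found there in 7.28% and 2.92%, and in 11.7% of ciliated cells. In lung metastasis TME replicate 5 Pigr was found in 4.17% and 0.604%, and Sox2 in 12.5% and 2.83%, from few cells. In the marker-rich cells, which the rule's own genes define, Bpifa1 stood at 6435, 12095, 20284 and 15172 CPM against 15.1 to 753 CPM in ciliated cells, while Cbr2 stood at 4766, 3708, 2798 and 3082 CPM, under ciliated cells in 3 of 4 libraries. The label of club cell was not borne out for most of the selected cells.

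Other secretory products were present in some of the selected cells. Reg3g (an antimicrobial lectin) stood at 189.7, 676, 314 and 644 CPM against 7.44 to 235 CPM in the rest, with a UMI in 2 of 19, 33 of 175, 4 of 26 and 36 of 107 cells. Ltf (lactoferrin, of serous gland cells and of neutrophil granules) reached 21.1, 980.4, 187 and 2305 CPM, and 54.3% of its UMIs in lung metastasis TME replicate 6 came from 1 cell. Muc5b (a gel-forming mucin) stood at 379, 246, 167 and 166 CPM, and Bpifb1 at 84.3, 1057, 363 and 384 CPM. Of these, Muc5b was lower in both metastasis libraries than in both controls, and the others overlapped. In unchallenged lung replicate 5 Muc5b came from 2 cells, and without the top cell of each library it stood at 23.1, 209, 71.1 and 117 CPM, which overlapped.

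Some of the selected cells carried transcripts of airway basal cells, the keratin-rich stem cells of the large airways. Krt15 stood at 506, 249, 128 and 318 CPM in the selected cells and at 0.689 to 17.2 CPM in the rest. Krt5 stood at 169, 48.5, 19.6 and 12.9 CPM, and Trp63, the transcription factor of basal cells, at 211, 27.7, 49.1 and 22.1 CPM. These transcripts were concentrated: 4, 8, 4 and 4 cells, 20 of the 327, had UMIs of at least 3 of 7 basal genes. In the marker-rich cells Krt15 had no UMI outside unchallenged lung replicate 6, where it stood at 100 CPM. At least 3 goblet cell genes were found in 1, 3, 1 and 3 cells. A cell of unchallenged lung replicate 5 held 83.3% of the Sftpc UMIs (surfactant protein C, of AT-2 cells) of that library's selected cells. These genes were named after their values were seen.

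**Figure D2:**
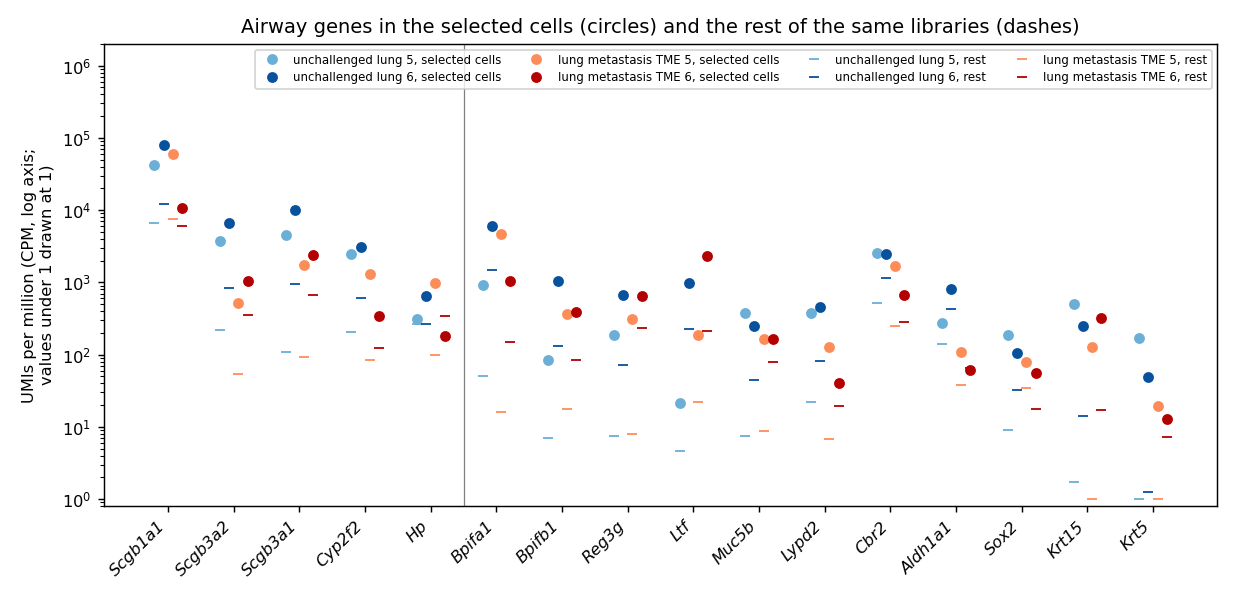
Airway genes in the selected cells (circles) and in the rest of the cells of the same libraries (dashes), in CPM on a log axis, with values under 1 drawn at 1. The 5 genes left of the line chose the cells. Krt15 stands at 128 to 506 CPM in the selected cells and at 0.689 to 17.2 CPM in the rest, whereas Aldh1a1 stands at 60.7 to 811 CPM in the selected cells and at 37.8 to 426 CPM in the rest.

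RNA of other cell types was measured in the selected cells with marker lists. The 10 melanoma genes summed to 105, 194, 20915 and 12359.8 CPM in the selected cells and to 101, 153, 24964 and 6183 CPM in the rest. A melanoma UMI was present in 26 of 26 and 107 of 107 selected cells of the metastasis libraries, against 3 of 19 and 45 of 175 in unchallenged lung. The 10 macrophage genes summed to 3414, 7809, 98.2 and 364 CPM (rest 8663, 10516, 513 and 3195) and the 7 neutrophil genes to 358, 7202, 49.1 and 451 CPM (rest 13602, 8272, 399 and 15082). For the melanoma and macrophage lists the selected cells and the rest had the same order of tissues, whereas the neutrophil list was high in the rest of lung metastasis TME replicate 6 and low in its selected cells. The lymphocyte list stood at no more than 585 CPM, with 8 of 8 genes at 0 in lung metastasis TME replicate 5.

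Cell by cell, a list of another type held more UMIs than the 4 markers in 5 of 19, 68 of 175, 9 of 26 and 67 of 107 selected cells (26.3%, 38.9%, 34.6% and 62.6%). In the controls these were mostly macrophage (3 and 50 cells) and neutrophil (0 and 38 cells) lists, and a cell can exceed on several lists. In the metastasis libraries they were mostly the melanoma list (9 and 62 cells). The marker-rich cells of lung metastasis TME replicates 5 and 6 held less Dct, a melanin-synthesis enzyme, than the selected cells as a whole: 2852 and 779 CPM against 13609.6 and 7187 CPM. The median mitochondrial share was 9.17%, 6.84%, 6.72% and 9.43% in the selected cells and 3.2%, 5.78%, 4.45% and 5.08% in the rest. The part of these transcripts in the results that follow was not tested.

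**Figure D3:**
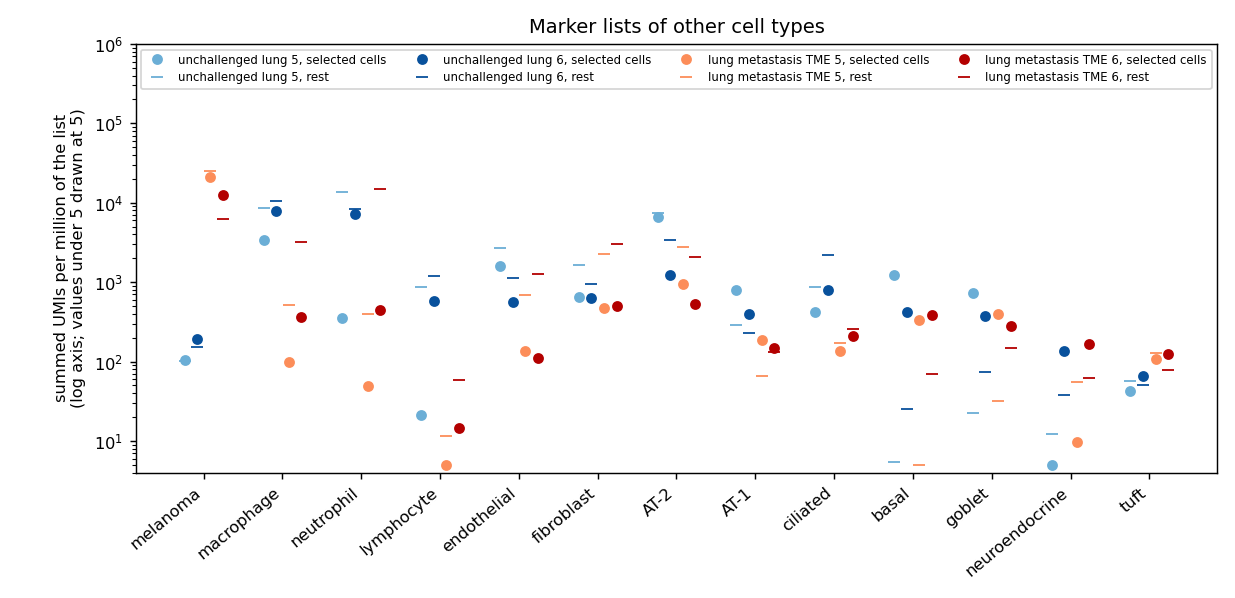
Summed CPM (log axis, values under 5 drawn at 5) of the marker lists of other cell types in the selected cells (circles) and the rest of the same libraries (dashes). The melanoma list stands at 12359.8 and 20915 CPM in the selected cells of the metastasis libraries and at 105 and 194 CPM in those of unchallenged lung, and the basal list stands at 334 to 1222 CPM in the selected cells and at no more than 70.6 CPM in the rest.

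The UMIs of the selected cells were summed per library and the 2 tissues were compared across libraries, with 2 libraries on each side, by edgeR's quasi-likelihood test. That test moderates the spread of each gene toward that of all genes, so p-values rest partly on this pooled spread. A gene is said to have risen or fallen where its Benjamini-Hochberg adjusted p was under 0.05. Each SE of a log2 value was derived from the test, as its size divided by the square root of the F statistic. Of 3668 genes tested 456 passed (12.4%), 207 higher (5.64%) and 249 lower (6.79%) in lung metastasis TME, and the median log2 fold change was 0.11. The lower genes include Scgb3a2, Scgb3a1 and Cyp2f2, which chose the cells and support nothing here. DESeq2 called 194 (5.29%). The libraries of the tissues did not overlap for 51.2% of the genes tested. Without unchallenged lung replicate 6, which held 175 control cells beside 19 in replicate 5, 53 genes passed. Without lung metastasis TME replicate 6 there were 302.

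The largest rises included melanoma transcripts. All 9 tested genes of the melanoma list rose, against a background of 5.64%. They entered the test through the metastasis libraries, and 5 of them had no UMI in the control cells. The count was 10 of 10 without lung metastasis TME replicate 6 and 6 of 10 without unchallenged lung replicate 6. Dct stood at 0, 3.46, 13609.6 and 7187 CPM, a ratio of the pooled levels of 2756 (exact counting interval 494 to 108886) that rests on 1 control UMI. The melanosome protein gene Pmel stood at 0, 0, 1051 and 84.6 CPM and was at least 26.6-fold higher, against a floor of 3 counts over the control libraries. The transcriptional coactivator gene Cited1 stood at 0, 0, 756 and 239 CPM and was at least 35.9-fold higher. Syt4, a synaptotagmin, stood at 0, 6.93, 1208 and 2607 CPM, a ratio of 401 (111 to 3314). Outside the list, Ptgds (prostaglandin D synthase) stood at 0, 0, 1119 and 745 CPM and was at least 90.1-fold higher. The others among the 10 largest rises were Nav3, Prrx1, Cspg4, Cst6, Slc45a2 and Lgi4, at least 60.9, 47.9, 55.2, 22.6, 18.4 and 28.6-fold higher. Cst6, Slc45a2 and Lgi4 lost their call without unchallenged lung replicate 6, and Pmel by DESeq2. The same genes were abundant in the rest of the metastasis libraries: Ptgds stood there at 2289 and 702 CPM and Cspg4 (the NG2 proteoglycan) at 217 and 252 CPM.

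Genes of glycolysis and hypoxia rose together. Of 26 genes 17 were tested and 13 rose, against a background of 5.64%, with none lower, and the median log2 fold change was 2.33. Adm (adrenomedullin, a hypoxia target) stood at 21.1, 0, 236 and 291 CPM, a ratio of 94.8 (16.8 to 3764). Genes such as Adm entered the test through the metastasis libraries, so the count of rises is not independent of that entry. Tpi1 (triosephosphate isomerase) stood at 42.1, 118, 825 and 657 CPM, a log2 fold change of 2.96 ± 0.70 (SE; edgeR adjusted p = 0.00061). Gapdh (glyceraldehyde-3-phosphate dehydrogenase) stood at 232, 259.8, 1099.8 and 938 CPM, a log2 fold change of 2.03 ± 0.67 (adjusted p = 0.026). For the same genes the median log2 fold change in the rest of the cells was 2.32, where Gapdh stood at 379 and 336 CPM in the controls and at 1499 and 1175 CPM in the metastases. DESeq2 called 8 of them, where it called 5.29% of all genes. Only 2 of the list passed in the selected cells without unchallenged lung replicate 5, 1 without unchallenged lung replicate 6, and 10 without lung metastasis TME replicate 6. Tpi1 and Gapdh lost their call without either control library, and Adm without unchallenged lung replicate 6.

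Genes of MHC class II, which present antigen to T cells, fell, as did some of class I. All 5 tested genes of the 11 of MHC class II fell, against a background of 6.79%, with a median log2 fold change of -3.81, and 5 fell also without unchallenged lung replicate 6 or without lung metastasis TME replicate 6, and 4 by DESeq2. Cd74, the invariant chain, stood at 1264, 1098, 78.6 and 171 CPM, a log2 fold change of -3.18 ± 0.70 (edgeR adjusted p = 0.00015). The class II chain H2-Ab1 stood at 421, 339.5, 0 and 31.3 CPM (-4.06 ± 0.74, adjusted p = 2.8e-06). In lung metastasis TME replicate 5, 8 of the 11 class II genes had no UMI, and genes such as H2-Ab1 entered the test through the controls. In the rest of the cells Cd74 stood at 1971, 1799, 222 and 755 CPM. Of 15 tested MHC class I genes 7 fell, and H2-T23 (a non-classical class I gene) was the lowest in p, at 105, 132, 0 and 11.04 CPM. None of them fell without unchallenged lung replicate 6, 3 without lung metastasis TME replicate 6, 4 without either of the other libraries and 2 by DESeq2. B2m, the light chain of class I, stood at 822, 1264, 530.2 and 269 CPM and did not pass (adjusted p = 0.15).

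Genes of macrophages and neutrophils fell as well. Of the macrophage list 4 of 5 tested genes fell and of the neutrophil list 3 of 3, against a background of 6.79%. Chil3, a chitinase-like protein of alveolar macrophages, stood at 358, 2058, 9.82 and 5.52 CPM (log2 fold change -7.56 ± 0.95, edgeR adjusted p = 3e-12). Ear2, an eosinophil-associated ribonuclease also made by macrophages, stood at 169, 551, 0 and 1.84 CPM. Pou2f2, a transcription factor of lymphocytes and monocytes, stood at 63.2, 243, 0 and 0 CPM and was at least 46.7-fold lower. Genes such as Ear2 and Pou2f2 entered the test through the control libraries. In the rest of the cells the same macrophage genes had a median log2 fold change of -2.74 and none passed. The neutrophil result rested on unchallenged lung replicate 6: S100a8 stood at 21.1, 2862, 0 and 195 CPM, and without that library its log2 fold change was 2.53. The macrophage count was then 2 of 4 and the neutrophil count 0 of 2. Without lung metastasis TME replicate 6 they were 5 of 8 and 5 of 6, and DESeq2 called 4 macrophage genes and 1 neutrophil gene.

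The enzymes for which club cells are known were lower in the metastasis libraries. Of 47 genes of drug and xenobiotic metabolism 21 were tested, 12 fell and none rose, against a background of 6.79% lower, and their median log2 fold change was -2.10. Aldh1a1 (retinaldehyde dehydrogenase 1) stood at 274, 811, 108 and 60.7 CPM, a log2 fold change of -2.87 ± 0.68 (edgeR adjusted p = 0.0006). The carboxylesterase gene Ces1d stood at 337, 312, 98.2 and 57.0 CPM, and the P450 gene Cyp4b1 at 358, 166, 78.6 and 33.1 CPM. Aox3 (aldehyde oxidase 3) stood at 189.7, 149, 39.3 and 20.2 CPM, and Fmo1 (a flavin monooxygenase) at 148, 90.1, 0 and 9.20 CPM. Genes such as Aox3 and Fmo1 entered the test through the control libraries, so the count of falls is not independent of that entry. In Aldh1a1, Ces1d, Cyp4b1, Aox3 and Fmo1 both metastasis libraries were under both controls, while 51.2% of all genes tested had no overlap between the tissues. Cbr2 had the same order of libraries but did not pass (log2 fold change -1.10 ± 0.63, adjusted p = 0.30).

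How firmly this list fell depended on the libraries. Without unchallenged lung replicate 6 none of its 20 tested genes passed, without unchallenged lung replicate 5 there were 5 lower, and without lung metastasis TME replicate 6 there were 3 lower and 1 higher, with medians of -1.44, -2.13 and -1.33. DESeq2 called 3. The call of Aldh1a1 was lost without unchallenged lung replicate 6, at a log2 fold change of -1.68. Aox3, Ces1d and Cyp4b1 lost theirs without that library, without lung metastasis TME replicate 6 and by DESeq2, Ces1d and Cyp4b1 also without unchallenged lung replicate 5, and Fmo1 without lung metastasis TME replicate 6. In the rest of the cells the median log2 fold change of the same genes was -1.05 and none passed. Some of the named genes were lower there too: the log2 fold change in the rest was -2.37 for Aldh1a1, -2.44 for Ces1d and -2.14 for Fmo1. Fmo1 stood at 299, 113, 25.5 and 64.5 CPM in the rest, with all 4 values above those of the selected cells. In cells reduced to 1000 UMIs, Aldh1a1 was found in 40.2% ± 15.3 (SD, n = 2) of the selected cells of unchallenged lung and in 5.71% ± 3.71 of those of lung metastasis TME, where 10.8% and 26.6%, and 3.91% and 4.71%, of the rest had it. In lung metastasis TME replicate 6 the share in the selected cells, 3.09%, was at the level of the rest. The exact permutation test, two-sided, cannot go below p = 0.333 with 2 libraries against 2, and gave that value. Cbr2 went from 69.4% ± 1.68 to 41.0% ± 30.3, also with an exact permutation p of 0.333. For Reg3g the shares were 12.9% ± 9.89 and 10.4% ± 2.86 (exact permutation p = 1).

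**Figure D4:**
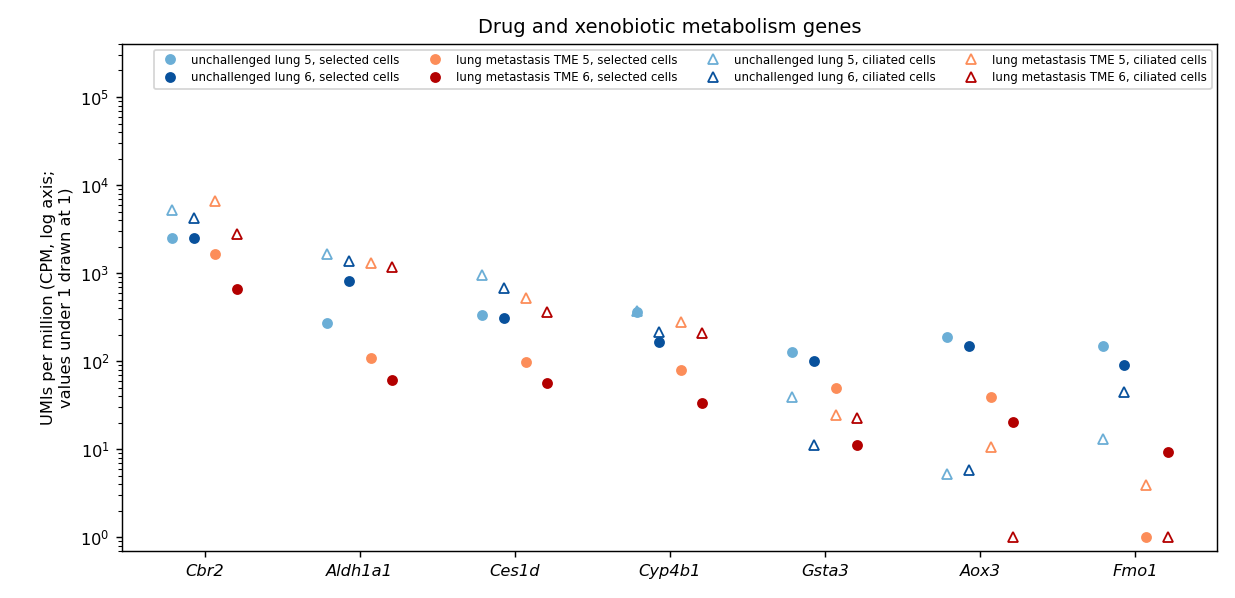
Genes of drug and xenobiotic metabolism in the selected cells (circles) and in ciliated cells of the same libraries (triangles), in CPM on a log axis, with values under 1 drawn at 1. Aldh1a1 stands at 274 and 811 CPM in the selected cells of unchallenged lung and at 108 and 60.7 CPM in those of lung metastasis TME, whereas in ciliated cells it stands between 1167 and 1658 CPM in all 4 libraries.

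Of the secreted airway proteins outside the rule, those that passed the main comparison fell. Of 30 genes 17 were tested, 3 fell (background 6.79%) and none rose, with a median log2 fold change of -0.50. Without lung metastasis TME replicate 5 there were 3 higher and 4 lower of 21, without lung metastasis TME replicate 6 there were 2 lower of 15, and with 1 barred UMI allowed 3 were higher and 4 lower. Lypd2, a GPI-anchored airway protein, stood at 379, 461, 128 and 40.5 CPM (log2 fold change -2.52 ± 0.69, edgeR adjusted p = 0.0039). Slpi, a protease inhibitor, stood at 63.2, 277, 9.82 and 29.4 CPM (-3.07 ± 0.71, adjusted p = 0.00037) and entered the test through the control libraries. Lyz2 (lysozyme, abundant in macrophages and AT-2 cells) stood at 2487, 3752, 88.4 and 164 CPM (-4.60 ± 0.73, adjusted p = 6.6e-08), beside 6523, 5219.9, 365 and 1356 CPM in the rest. Without unchallenged lung replicate 6 the median of the list was 0.58, and the call of Lypd2 was lost without that library or without lung metastasis TME replicate 6, while Lyz2 passed without any 1 library. The adjusted p of Bpifa1 was 0.84, that of Reg3g 0.99 and that of Muc5b 0.46.

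Of the regulators of airway identity and of inflammation, those that passed all fell, against a background of 6.79% of all genes lower. Of 15 tested airway transcription factors 2 fell, with a median log2 fold change of -1.20: Nkx2-1, the lung lineage factor, at 316, 104, 49.1 and 31.3 CPM (-2.30 ± 0.71, edgeR adjusted p = 0.013), and Cebpb. Of 6 tested Notch pathway genes 1 fell, Lfng, a modifier of Notch receptors, at 105, 107, 19.6 and 3.68 CPM. Of 10 acute phase and NF-kB genes 3 fell, Cxcl15 (lungkine), Nfkb1 and Tnfaip2. Of 11 interferon-stimulated genes 5 fell, led by Ifi27l2a at 105, 343, 0 and 7.36 CPM. Nkx2-1, Lfng and Ifi27l2a entered the test through the control libraries, so the counts of falls are not independent of that entry. Of 25 immediate early and heat shock genes 7 fell, among them Zfp36 and Junb, and none of the 10 tested genes of ion and water transport passed. In the order of transcription factor, Notch, acute phase, interferon-stimulated and immediate early genes, the median log2 fold changes were -1.20, -1.41, -1.31, -1.99 and -1.06. In the rest of the cells the same genes had medians of -0.43, -0.94, -0.92, -0.93 and -1.18, and none passed. Without unchallenged lung replicate 6 no transcription factor, interferon-stimulated or immediate early gene passed, no Notch pathway gene did, and 1 acute phase gene did. Without lung metastasis TME replicate 6 there were 1 transcription factor, 2 acute phase genes, 2 interferon-stimulated genes and 7 immediate early genes lower and 1 immediate early gene higher, and the call of Lfng was lost. DESeq2 called no transcription factor, acute phase or Notch gene, 2 interferon-stimulated genes and 4 immediate early genes. Without unchallenged lung replicate 5 no transcription factor fell and 1 rose, and of the fits without 1 library Nkx2-1 kept its call only in that without lung metastasis TME replicate 5.

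A few genes tied to injury, growth and redox state passed, beside backgrounds of 5.64% higher and 6.79% lower. Of 17 tested genes of injury and transitional epithelium 4 rose. Fn1 (fibronectin) stood at 105, 166, 530.2 and 4547 CPM (log2 fold change 4.09 ± 0.73, edgeR adjusted p = 1.7e-06), with 1011 and 2808 CPM in the rest of the metastasis libraries. Lgals3 (galectin 3) stood at 232, 436.5, 1335 and 1569 CPM, and Ccn2 and Tnfrsf12a also rose. Among 16 antioxidant genes Mt1 (a metallothionein) and Prdx2 rose while Gclc and Gsr, of glutathione synthesis and recycling, fell. Of 14 growth factor and receptor genes Erbb3 and Tgfb2 rose, and of 5 tested cell cycle genes Stmn1 did. The median log2 fold changes were 0.04 for injury genes, 0.40 for antioxidant genes and 0.06 for growth factors, beside the 0.11 of all genes tested. Leaving out either control library left 1 injury gene, and leaving out lung metastasis TME replicate 6 left 2. Fn1 did not pass without unchallenged lung replicate 5, and Lgals3 without either control library. Without unchallenged lung replicate 6 no antioxidant, growth factor or cell cycle gene passed, and without unchallenged lung replicate 5 no antioxidant gene rose. Without lung metastasis TME replicate 6 there were 2 antioxidant genes higher and 1 lower, and no growth factor gene higher and 1 lower, with the call of Tgfb2 lost. Among the fits without 1 library Stmn1 kept its call only in that without lung metastasis TME replicate 6. DESeq2 called 2 injury genes, 1 antioxidant gene and no growth factor gene, and the call of Prdx2 was lost with DESeq2 size factors alone.

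**Figure D5:**
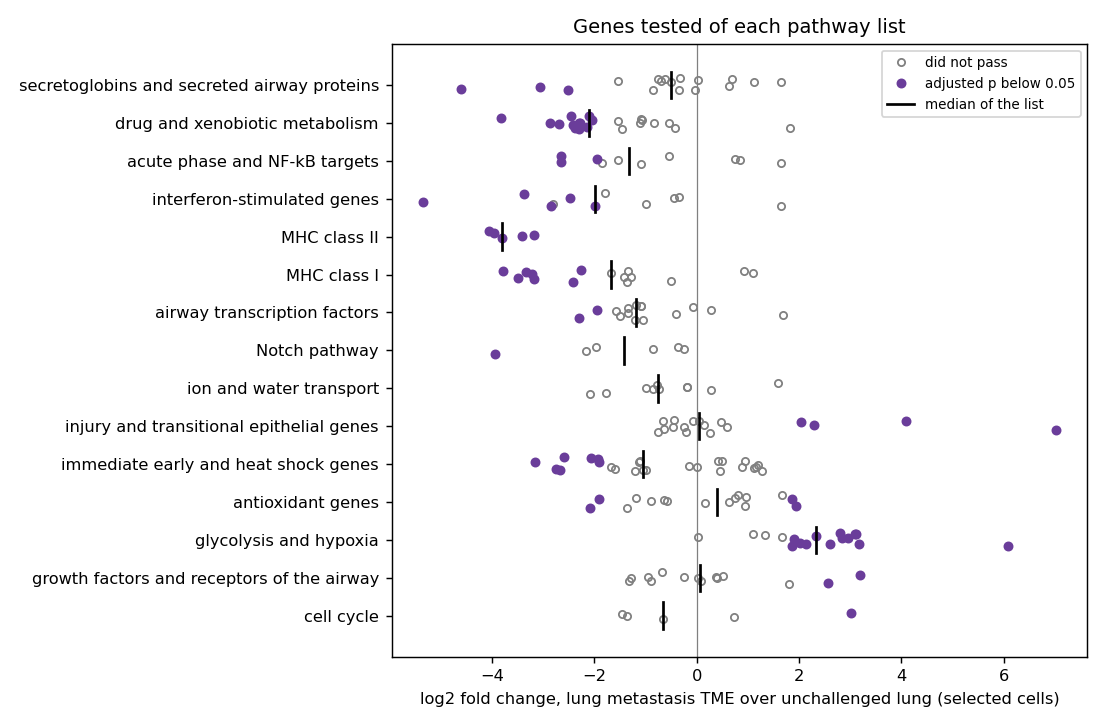
Log2 fold change of lung metastasis TME over unchallenged lung in the selected cells, for each tested gene of 15 pathway lists. Filled points passed at an adjusted p under 0.05, open points did not, and the bars are the medians of the lists, which run from -3.81 for MHC class II to 2.33 for glycolysis and hypoxia.

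Lists of other lung cell types moved in the same comparison. Of the endothelial list 5 of 6 tested genes fell, of the AT-2 list 3 of 6 and of the ciliated list 2 of 4, against a background of 6.79%, while the basal and goblet lists each had 2 genes tested and none passed. Hopx of the AT-1 list and Dcn of the fibroblast list fell, and Dclk1, the 1 tested gene of the tuft list, rose. Hopx and Dclk1 lost their call without lung metastasis TME replicate 6, without unchallenged lung replicate 6 and by DESeq2, and Dclk1 also without unchallenged lung replicate 5. The endothelial count was 1 without lung metastasis TME replicate 6, 2 without unchallenged lung replicate 6 and 3 without either of the others. The AT-2 count was 2 without lung metastasis TME replicate 6, and DESeq2 called no AT-2 or ciliated gene. The ciliated count was 1 of 1 without lung metastasis TME replicate 6 and 0 of 1 without unchallenged lung replicate 6. Sftpc fell, at 4299, 218, 344 and 188 CPM, but its log2 fold change was 0.046 without unchallenged lung replicate 5, where 1 cell held most of it. Aqp3, an aquaporin of basal cells, stood at 358, 232, 78.6 and 16.6 CPM (log2 fold change -2.95 ± 0.74, edgeR adjusted p = 0.0014).

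The same tissue contrast was fitted in the other cells of the 4 libraries, which share their mice, capture and any free RNA with the selected cells. In the rest 40 of 16739 genes passed (0.239%) and in ciliated cells 34 of 10406 (0.327%), all of them higher. At an unadjusted edgeR p under 0.05 there were 4447 genes in the rest and 1047 in ciliated cells. In the selected cells there were 849 of 3668, so the counts of genes that passed do not compare the size of the changes. In ciliated cells Aldh1a1 stood at 1658, 1387, 1318 and 1167 CPM (log2 fold change -0.24, edgeR adjusted p = 0.89).

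The difference between the tissue contrast in the selected cells and in ciliated cells was then tested itself, with the library as a block. Of 8595 genes 32 passed (0.372%), 11 with the higher change in the selected cells (0.128%) and 21 with the lower (0.244%). Among the 11 were Mitf (the master regulator of melanocytes), with a log2 difference of 4.01 ± 0.88 (adjusted p = 0.0056), Mpzl1 (3.62 ± 0.77), Ankrd28 (4.42 ± 1.14), Serpine2 (3.34 ± 0.79) and Metrn (3.26 ± 0.86). Mitf stood at 0, 10.4, 520.4 and 445 CPM in the selected cells and at 28.3, 21.0, 78.8 and 64.0 CPM in ciliated cells. The lower ones included the lipoprotein lipase gene Lpl (-4.60 ± 0.81, adjusted p = 4.5e-05) at 63.2, 738, 19.6 and 7.36 CPM, and Cldn18, a tight junction protein of alveolar epithelium (-3.96 ± 1.03). Exph5, Cyfip2 and Cep126 had differences of -5.10 ± 1.34, -4.90 ± 1.21 and -4.62 ± 1.23. The 21 also hold Scgb1a1, Scgb3a1 and Cyp2f2, which chose the cells. Aldh1a1 was lower by the same test (-2.48, adjusted p = 0.0056), as were Reg3g (-2.71) and Sftpa1 (-2.82). For Reg3g the log2 fold change was 0.03 in the selected cells and 2.57 in ciliated cells, and neither passed. Without lung metastasis TME replicate 6 none of the genes passed, without replicate 5 there were 3, and without unchallenged lung replicate 5 there were 101. DESeq2 called none of the genes of this difference.

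Against AT-2 cells the same test could use 3 libraries, since lung metastasis TME replicate 6 held 1 AT-2 cell. Of 6085 genes 5 passed (0.0822%), all with the lower change in the selected cells. Lyz2 had a log2 difference of -5.35 ± 0.93 (edgeR adjusted p = 2.5e-05), and stood at 14819, 9348 and 13215 CPM in AT-2 cells of unchallenged lung replicates 5 and 6 and lung metastasis TME replicate 5. Cd74 (-4.16 ± 0.91) stood at 2663, 2025 and 2643 CPM in those AT-2 cells, against 1264, 1098 and 78.6 CPM in the selected cells. H2-Aa (-9.25 ± 1.96) and H2-Ab1 (-8.97 ± 2.01) had no UMI in the selected cells of lung metastasis TME replicate 5, so the size of these differences depends on the fit and is not a measured fold. Retnla (a resistin-like secreted protein) had a difference of -6.13 ± 1.06, with 0, 34.5 and 3326 CPM in AT-2 cells and 0, 246 and 442 CPM in the selected cells. This comparison rests on 1 metastasis library, and its spread comes from the 2 control libraries alone, with 1 residual degree of freedom, so these p-values assume that the metastasis library varies as the controls do.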

How the data were processed

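Cells were captured with 10x 3' chemistry. Per the labels and methods, the authors aligned reads with Cell Ranger (6.1.1) to GRCm38 and handled the counts in Seurat (3.2.2). The deposited matrix holds raw UMI counts of 32285 genes in 110283 cells, with a deposited table of counts per cell and the percent of mitochondrial UMIs. The deposited log-normalised matrix was not used. Identical libraries were counted once, leaving 100359 cells. No doublet caller was run.

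Members were summed per library (at least 10 cells, lowered from 20 after the counts were seen), giving 47455 to 543619 UMIs, and compared with edgeR 4.0.16 (quasi-likelihood, TMM, R 4.3.3), with DESeq2 1.42.0 as an alternative. Only the edgeR fit of the main tissue comparison was tried on simulated counts. These had a fixed spread and no sums set by single cells, and the outcome is not reported here. The members and gene lists were chosen with earlier results of these data known. Genes named are the rule and check genes and up to 4 tested genes a list, taken by p with the most abundant among them. Also named are the 10 largest changes in each direction among called genes of at least 20 CPM whose libraries do not overlap. Each difference adds 5 a direction. Others were named after their values were seen. Alternatives covered normalization, filters, depth, the selection rule, replicate blocks and leaving out each library. Some genes that meet the naming rule are not reported here.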

Additional observations from a re-analysis of the deposited data

Results flagged for a closer look

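In lung metastasis TME replicate 6, 10.3% of the cells met the selection rule, farther from the shares of the other lung metastasis TME libraries than the 95% critical value of Dixon's test allows. Chance gives such a value in about 1 in 20 groups. This library was also deposited under the MM label, and its selected cells had the lowest median marker share (0.470%).

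The tissue contrast differed between the selected cells and ciliated cells for 32 genes by edgeR's test of the difference and for none by DESeq2. The log2 differences were 4.42 for Ankrd28, 4.01 for Mitf, 3.62 for Mpzl1, 3.34 for Serpine2 and 3.26 for Metrn, and -5.10 for Exph5, -4.90 for Cyfip2, -4.62 for Cep126, -4.60 for Lpl and -3.96 for Cldn18. Against AT-2 cells it differed for 5 genes (2 by DESeq2), Lyz2 (-5.35), Retnla (-6.13), H2-Ab1 (-8.97), H2-Aa (-9.25) and Cd74 (-4.16). H2-Ab1 and H2-Aa had no UMI in the selected cells of lung metastasis TME replicate 5, so the size of their differences depends on the fit.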

How the results depend on the processing

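The main tissue comparison called 456 genes. DESeq2 called 194, cells with UMIs of 4 rule genes 134 of 1295 tested, and allowing 1 barred UMI 847 of 7104 tested. Leaving out 1 library gave 53 (without unchallenged lung replicate 6) to 471 (without lung metastasis TME replicate 5). The replicate numbers are not stated to pair the libraries of the tissues, and same-numbered libraries did not deviate together (r = -0.02 over 3668 genes). With the replicate block 374 genes passed and with the crossed pairing, added after the data were seen, 409.

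The difference from ciliated cells gave 32 genes, none with DESeq2, 66 with DESeq2 size factors, 8 with no filter and 0 to 101 without 1 library. The difference from AT-2 cells gave 5 genes, 2 with DESeq2 and 2 with no filter, and leaving out a library left no residual degrees of freedom.

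The selected share of unchallenged lung replicates 5 and 6 was 0.0832% and 0.350% with 4 rule genes, 0.932% and 2.33% with 1 barred UMI allowed, and 0.544% and 1.76% with cells thinned to 1000 UMIs. In lung metastasis TME replicates 5 and 6 it was 0.194% and 2.22% with 4 rule genes, 0.774% and 15.6% with 1 barred UMI, and 0.721% and 4.26% when thinned. Unchallenged lung replicate 1 went from 0 to 0.311% when thinned.

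Reg3g was found in 9.82 percentage points more of the metastasis cells without thinning, in place of fewer. Leaving out 1 library, the log2 fold change of Sftpc ran from -3.94 to 0.046 (without unchallenged lung replicate 5) and that of S100a8 from -10.79 to 2.53 (without unchallenged lung replicate 6). Of the other values of named genes under the alternatives, 1284 stayed on their side of the threshold, 251 lost their call and 20 gained it. The causes were not tested. Selecting only cells without UMIs of Dct, Pmel, Mlana, Tyrp1, Tyr and Cited1 left no cell in lung metastasis TME replicates 5 and 6, so that comparison could not be run.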
